A study of Mus musculus with 8 samples.

Results

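The EGF family of growth factors and their ErbB receptors was examined in mouse brain pericytes, the contractile cells that surround capillaries, after treatment with TGF-β1. The 9 genes were taken by symbol, as members of the family, from the 54532 gene identifiers counted, with earlier results of these data known, and comprise 6 ligands (*Hbegf*, *Areg*, *Ereg*, *Tgfa*, *Btc* and *Nrg1*) and 3 receptors (*Egfr*, *Erbb2* and *Erbb3*). Wild-type primary pericytes from brain were cultured for 48 h with TGF-β1 (5 μg mL−1, 4 cultures, replicates 5 to 8) or with vehicle (4 cultures, replicates 1 to 4), and total RNA was sequenced, with 1 library per culture. The methods describe cells that were expanded over several passages and kept in a medium with added growth factors, so all groups share an exposure to serum and growth factors. Although the methods speak of isolates that received each treatment, no label ties a treated culture to its vehicle counterpart, and the groups were compared as unpaired.

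EGF family ligands are made as membrane-anchored precursors and are released by metalloproteinases of the ADAM family. HB-EGF, amphiregulin, epiregulin, TGF-α and betacellulin bind the EGF receptor, though not all of them bind it alone, and neuregulin 1 binds ErbB3 and ErbB4. ErbB2 has no known ligand of its own and acts as a dimer partner, and ErbB3 has little kinase activity and depends on such partners. Active receptors signal through the RAS and ERK cascade and through PI3 kinase and AKT, and in mural cells EGF receptor ligands are known for effects on growth and migration.

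Depth was even, with 45255235 to 47651397 counts per culture. Levels are given as CPM, counts scaled to the library size with TMM factors, and 3 counts corresponded to 0.0631 to 0.0658 CPM. Of 8 pericyte markers, 6 passed the filter on low counts. Among them, 2 were higher and 2 lower with TGF-β1 (edgeR adjusted p under 0.05), beside 20.9% and 20.3% of all 22544 genes tested. In group means, vehicle first and TGF-β1 second, *Pdgfrb* went from 202 to 291 CPM and *Cspg4* from 82.9 to 169 CPM, *Rgs5* went from 8.62 to 2.13 CPM and *Anpep* from 40.5 to 30.1 CPM, and *Notch3* was at 88.4 and 85.9 CPM. *Des* had 25 to 36 counts, *Abcc9* at most 9 and *Kcnj8* at most 2, so these defining markers were low or nearly absent. Of the endothelial markers, *Cdh5* was at 375 and 367 CPM, *Pecam1* at 1.11 CPM in both groups and *Cldn5* at no more than 10 counts, while *Vwf* went from 1.57 to 3.81 CPM (called higher) and *Tek* from 2.71 to 1.99 CPM (called lower). Epithelial markers summed to at most 0.764 CPM in any culture. Of the fibroblast markers, *Col1a1* went from 1587 to 2525 CPM (called higher) and *Dcn* from 52.1 to 46.7 CPM (called lower), *Pdgfra* was at 62.5 and 63.0 CPM, and *Lum* had at most 6 counts. Of the astrocyte markers, *Slc1a2* went from 38.5 to 16.3 CPM (called lower) and *Aldh1l1* from 5.2 to 8.8 CPM (called higher). Of the neuron markers, *Map2* went from 10.8 to 6.92 CPM (called lower) and *Syt1* was at 2.43 and 2.24 CPM. The other members of these 2 lists were under 1 CPM in both groups. Microglia and macrophage markers summed to 5.84 to 6.69 CPM with vehicle and 6.53 to 8.18 CPM with TGF-β1. Among them *Cd68* was at 5.10 and 5.92 CPM, and none was called. The part of these marker changes in the results below was not tested. In bulk RNA, fewer cells of a type and less RNA per cell cannot be told apart.

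The promoters of 3 ligands are shown first because their genes lie close together or share a receptor and yet moved differently: *Areg* and *Tgfa* rose and *Btc* fell. Each sequence is the 250 bases before the start site (RefSeq, GRCm38.p6), read 5′ to 3′ on the strand of the gene, with motif matches in capitals.
Areg (chr5:91139349-91139598, + strand): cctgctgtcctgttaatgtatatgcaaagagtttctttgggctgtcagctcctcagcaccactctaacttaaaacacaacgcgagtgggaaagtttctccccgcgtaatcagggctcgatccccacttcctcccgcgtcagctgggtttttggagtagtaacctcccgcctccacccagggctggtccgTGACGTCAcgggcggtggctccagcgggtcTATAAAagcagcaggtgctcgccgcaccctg
Tgfa (chr6:86194972-86195221, + strand): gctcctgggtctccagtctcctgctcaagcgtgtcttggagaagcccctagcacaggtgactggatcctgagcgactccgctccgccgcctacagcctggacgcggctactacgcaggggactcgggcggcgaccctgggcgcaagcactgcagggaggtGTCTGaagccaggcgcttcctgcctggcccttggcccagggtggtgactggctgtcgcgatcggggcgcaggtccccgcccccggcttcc
Btc (chr5:91402995-91403244, − strand): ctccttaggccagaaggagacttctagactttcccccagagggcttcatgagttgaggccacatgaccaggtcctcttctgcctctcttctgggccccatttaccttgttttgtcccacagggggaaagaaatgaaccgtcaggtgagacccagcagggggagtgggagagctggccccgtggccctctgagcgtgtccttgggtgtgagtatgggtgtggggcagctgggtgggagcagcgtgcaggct
The motifs searched on both strands were TGANTCA (AP-1), CAGAC (the SMAD core), TGACGTCA (the cAMP response element) and TATAAA (the TATA box). *Areg* held TGACGTCA 61 bases and TATAAA 31 bases before the start site, counted to the first letter of each match. The first of these occurred in 1.55% and the second in 12.4% of the 32851 promoters of the same length. *Tgfa* held CAGAC on the opposite strand at 90 bases before the start, a motif found in 42.2% of promoters. None of these motifs occurred in the *Btc* window or in those of *Egfr* and *Erbb2*. TGANTCA, present in 6.75% of promoters, was in none of the 5 windows. No window was available for *Hbegf*, *Ereg*, *Nrg1* or *Erbb3*, so genes that rose and genes that fell cannot be compared by motif. A match describes the letters and is not a measured binding site.

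With TGF-β1, 5 of the 6 ligands were higher and the other, *Btc*, was lower. Of the receptors, *Egfr* was slightly lower, and *Erbb2* and *Erbb3* did not pass the test. In edgeR's quasi-likelihood test with an adjusted p under 0.05 over all genes, 7 of the 9 genes were called, 5 higher and 2 lower, beside 41.3% of the 22544 genes tested (20.9% higher and 20.3% lower). All 9 genes passed the filter on low counts. Their median log2 fold change was 0.38, beside -0.01 over all genes tested, and the called genes of the whole table had a median absolute log2 fold change of 0.32. In 7 of the 9 genes the treated and vehicle ranges were fully separate, 5 above and 2 below, beside 37.9% of all genes tested (19.1% above and 18.8% below).

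**Figure D1:**
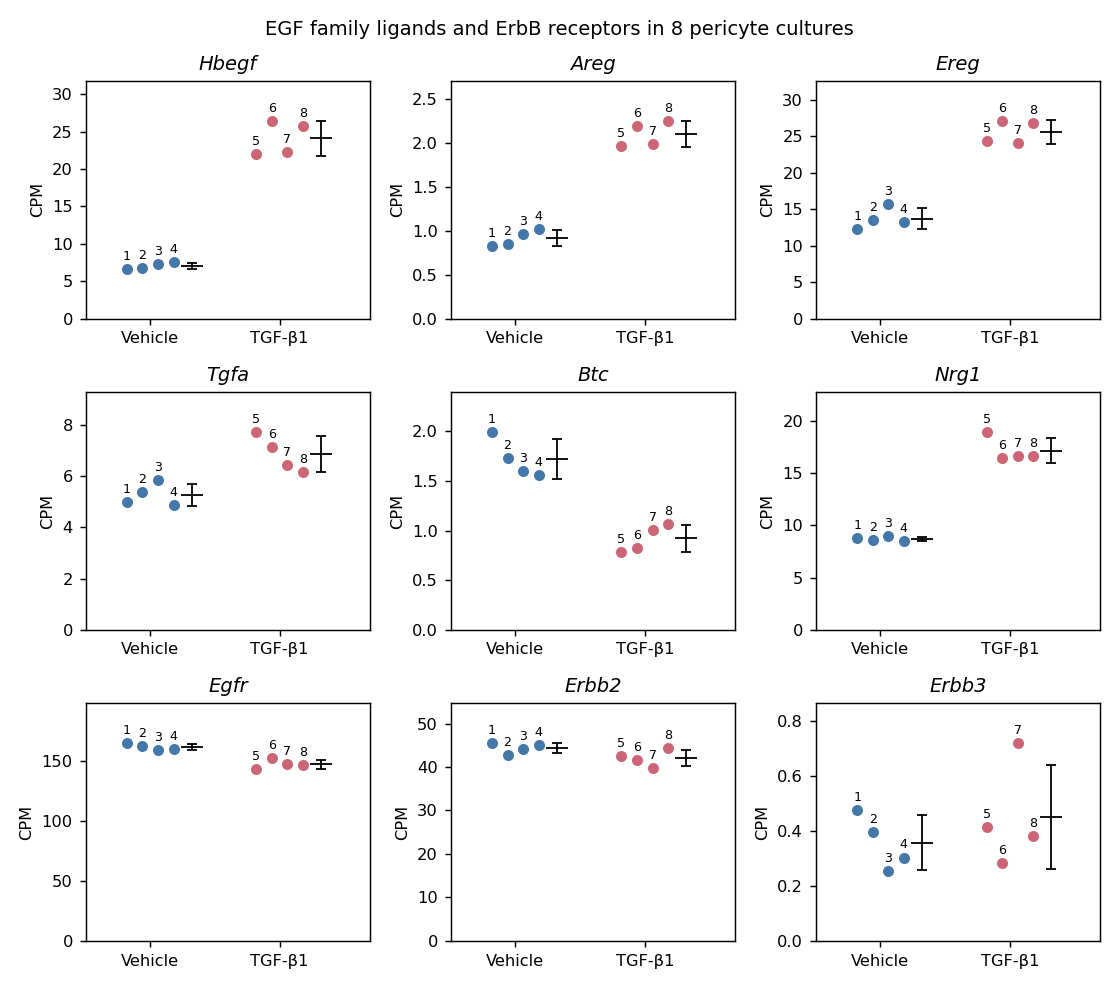
CPM of the 9 EGF family genes in each culture (points, numbered by replicate; 4 vehicle and 4 TGF-β1 cultures), with the mean and SD of each group in black and every vertical axis starting at 0. The TGF-β1 cultures of *Hbegf* sit between 21.95 and 26.5 CPM, above all vehicle cultures (6.57 to 7.52 CPM), while those of *Btc* lie below the vehicle cultures and those of *Erbb2* and *Erbb3* overlap them.

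*Hbegf* (ENSMUSG00000024486, chromosome 18, 36504927 to 36515805 of GRCm38), which encodes the heparin-binding EGF-like growth factor, changed most. It was at 6.57, 6.78, 7.32 and 7.52 CPM in the vehicle cultures and at 21.95, 26.5, 22.2 and 25.7 CPM in the TGF-β1 cultures. The lowest treated culture, replicate 5, was still far above the highest vehicle culture, replicate 4. The means were 7.05 ± 0.445 CPM and 24.1 ± 2.33 CPM (SD, n = 4 each), a 3.42-fold rise (95% confidence interval 3.11 to 3.75). The log2 fold change was 1.77 (standard error 0.07, edgeR adjusted p = 3.99e-25).

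*Areg* and *Ereg* encode amphiregulin and epiregulin and lie on the same strand of chromosome 5 with a gap of 45.95 kb (*Areg*, ENSMUSG00000029378, 91139599 to 91148432; *Ereg*, ENSMUSG00000029377, 91074622 to 91093646). *Areg* was at 0.825, 0.855, 0.968 and 1.02 CPM with vehicle and at 1.96, 2.20, 1.99 and 2.26 CPM with TGF-β1. This is a low level, from 38 to 47 counts and from 90 to 106 counts, but no treated culture came near the vehicle range. *Areg* rose 2.29-fold (95% confidence interval 1.80 to 2.92), with a log2 fold change of 1.19 (standard error 0.17, edgeR adjusted p = 1.55e-07). *Ereg* was at 12.3, 13.6, 15.7 and 13.2 CPM with vehicle and at 24.3, 27.1, 24.1 and 26.75 CPM with TGF-β1. Vehicle replicate 3 was the highest of its group and still below every treated culture. The rise of *Ereg* was 1.87-fold (1.71 to 2.03), with a log2 fold change of 0.90 (standard error 0.06, edgeR adjusted p = 6.11e-16). In *Hbegf*, *Areg* and *Ereg* alike, replicates 6 and 8 were the higher pair of the treated cultures and replicates 5 and 7 the lower pair. The same pairs were seen in *Etv4* and *Dusp4*, described below, but not in *Nrg1* or *Tgfa*. The pattern was thus not particular to these ligands.

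*Nrg1* (ENSMUSG00000062991, chromosome 8, 31814551 to 32884029), the neuregulin that signals through ErbB3 and ErbB4, was at 8.83, 8.55, 8.94 and 8.53 CPM with vehicle and at 18.96, 16.4, 16.65 and 16.6 CPM with TGF-β1. The vehicle values were tightly grouped, and replicate 5 stood above the other treated cultures. The rise was 1.97-fold (95% confidence interval 1.80 to 2.15), with a log2 fold change of 0.98 (standard error 0.06, edgeR adjusted p = 4.43e-17), and without replicate 5 the log2 fold change was 0.92. *Tgfa* (ENSMUSG00000029999, chromosome 6, 86195223 to 86275719), which encodes TGF-α, rose least of the 5. Its levels were 4.99, 5.37, 5.83 and 4.85 CPM with vehicle and 7.72, 7.14, 6.42 and 6.17 CPM with TGF-β1. The nearest cultures, vehicle replicate 3 and treated replicate 8, differed by little, although the groups did not overlap. The fold was 1.30 (1.14 to 1.49) and the log2 fold change was 0.38 (standard error 0.09, edgeR adjusted p = 0.000742).

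*Btc* (ENSMUSG00000082361, chromosome 5, 91357261 to 91402994), which encodes betacellulin, moved the other way. It was at 2.00, 1.73, 1.60 and 1.56 CPM with vehicle and at 0.786, 0.828, 1.00 and 1.06 CPM with TGF-β1, from 72 to 92 counts and from 36 to 50 counts. Each treated culture was below each vehicle culture. The level fell by 0.90 on the log2 scale (standard error 0.19, 95% confidence interval of the log2 fold change -1.27 to -0.53, edgeR adjusted p = 8.11e-05), from 1.72 ± 0.197 to 0.920 ± 0.135 CPM (SD, n = 4 each).

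*Btc* belongs to the same stretch of chromosome 5 as *Ereg* and *Areg*, which also holds the ligand gene *Epgn* and spans 375.5 kb from the start of *Epgn* to the end of *Btc*. *Btc* lies 208.8 kb beyond *Areg* on the opposite strand. Within this stretch the ligand genes had log2 fold changes of 0.90 (*Ereg*), 1.19 (*Areg*) and -0.90 (*Btc*), while *Epgn*, at 7 counts or fewer in each culture, was too low to be tested. Of the non-coding genes between them, the antisense RNA *Gm19610* had a log2 fold change of 0.30 (edgeR adjusted p = 0.359) and the lincRNA *Gm19619*, at 20 counts or fewer, had -0.93 (adjusted p = 0.0983). These 2 did not pass the test. *Gm19610* overlaps 3.42% of the exon bases of *Ereg* on the opposite strand, and other genes overlap 4.66% of those of *Nrg1* and 1.82% of those of *Tgfa*. The strand setting of the counting is not given in the sources used here.

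**Figure D2:**
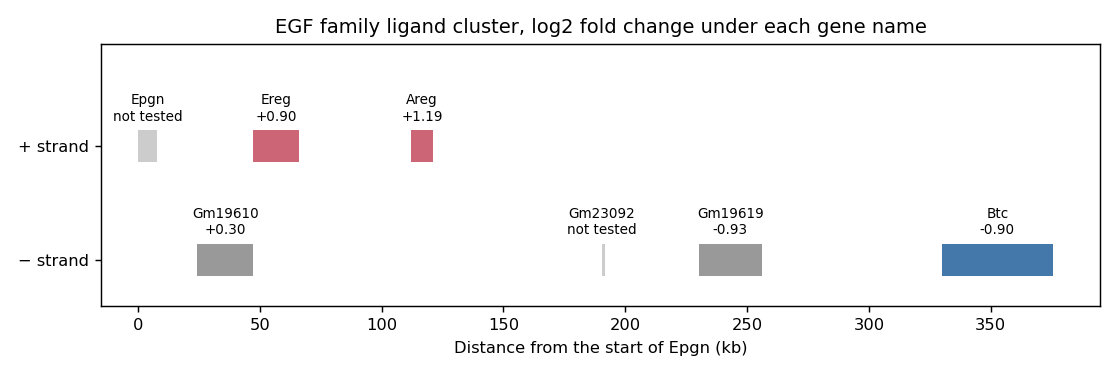
Genes of the ligand stretch of chromosome 5 by distance from the start of *Epgn* in kb and by strand, with the log2 fold change (TGF-β1 over vehicle) under each name. Red marks genes that were higher and blue genes that were lower with an edgeR adjusted p under 0.05, and grey marks genes not called (dark) or not tested (light). *Ereg* and *Areg* rose and *Btc* fell.

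Among the receptors, *Egfr* (ENSMUSG00000020122, chromosome 11, 16752203 to 16918158), a receptor of the ligands above other than neuregulin 1, was at 165.5, 162.7, 159.6 and 160.3 CPM with vehicle and at 143.5, 152.5, 147.7 and 147.1 CPM with TGF-β1. The groups did not overlap, but the change was small. The log2 fold change was -0.13 (standard error 0.03, edgeR adjusted p = 2.69e-05), which is a fall of the mean from 162 ± 2.67 to 147.7 ± 3.71 CPM (SD, n = 4 each). *Erbb2* (ENSMUSG00000062312, chromosome 11, 98412470 to 98437716), the partner receptor, was at 45.5, 42.8, 44.1 and 45.0 CPM with vehicle and at 42.4, 41.7, 39.8 and 44.4 CPM with TGF-β1. These ranges overlapped, and the log2 fold change of -0.08 (standard error 0.04, 95% confidence interval -0.15 to -0.0004) had an edgeR adjusted p of 0.105. *Erbb3* (ENSMUSG00000018166, chromosome 10, 128567523 to 128589652), a neuregulin receptor, had only 12 to 33 counts per culture. It was at 0.477, 0.395, 0.253 and 0.303 CPM with vehicle and at 0.415, 0.283, 0.720 and 0.383 CPM with TGF-β1, with treated replicate 7 above the rest. The log2 fold change of 0.33 had a 95% confidence interval of -0.36 to 1.03 (edgeR adjusted p = 0.477), and without replicate 7 it was 0.01, so a change of moderate size in either direction was not detectable at this depth. *Erbb3* is known from oligodendrocyte and Schwann lineages, whose marker list summed to 4.21 to 5.59 CPM with vehicle and 5.42 to 6.07 CPM with TGF-β1, with *Olig2* at 2 counts or fewer in every culture.

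**Figure D3:**
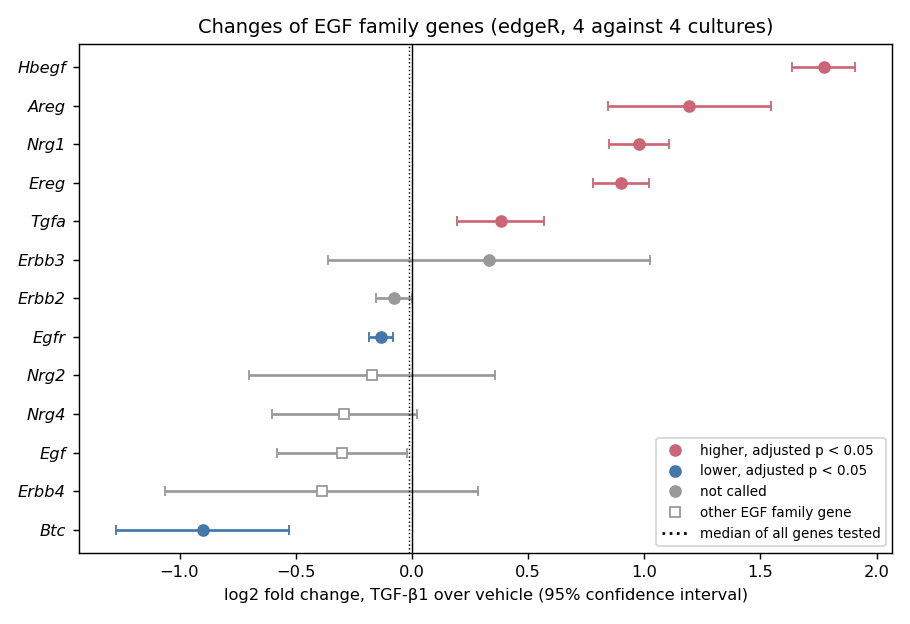
Log2 fold change (TGF-β1 over vehicle) of the 9 genes (circles) and of 4 other EGF family genes (open squares), with 95% confidence intervals from edgeR. The dotted line is the median of all genes tested (-0.01). *Hbegf* is at 1.77 and *Btc* at -0.90, and the interval of *Egfr* lies close to 0 and that of *Erbb3* spans it.

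Compared per exon length, the receptors *Egfr* and *Erbb2* led in both groups. With vehicle, *Egfr* was at 14.3 ± 0.236 and *Erbb2* at 8.52 ± 0.228 CPM per kb of exon (SD, n = 4 each). They were followed by *Ereg* at 3.32 ± 0.348 and *Hbegf* at 1.46 ± 0.0920 CPM per kb. Then came *Nrg1* (0.842), *Tgfa* (0.811) and *Areg* (0.754 CPM per kb), whose neighbouring ranges overlapped, and the lowest were *Btc* (0.381) and *Erbb3* (0.0593 CPM per kb). With TGF-β1 the levels were 13.0 CPM per kb for *Egfr*, 8.07 for *Erbb2*, 6.20 for *Ereg*, 4.98 for *Hbegf*, 1.73 for *Areg*, 1.66 for *Nrg1*, 1.06 for *Tgfa*, 0.204 for *Btc* and 0.0748 for *Erbb3*. *Areg* thus stood above *Tgfa* with TGF-β1 but not with vehicle, and in the treated cultures the ranges of *Areg* and *Nrg1* overlapped, while those of all other neighbours in the order did not. The level of the 6 ligands together was 7.56 ± 0.482 CPM per kb with vehicle and 15.8 ± 0.897 with TGF-β1 (SD, n = 4 each). The share of *Hbegf* in that sum was 18.4 to 20.7% in the vehicle cultures and 29.8 to 32.7% in the TGF-β1 cultures, while *Ereg* was the largest part in all, at 42.1 to 46.2% and 38.6 to 39.4%. The share of *Btc* was 4.30 to 6.24% with vehicle and 1.09 to 1.49% with TGF-β1. These levels are descriptions without a test, and they use the summed exon length of every annotated transcript of a gene.

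**Figure D4:**
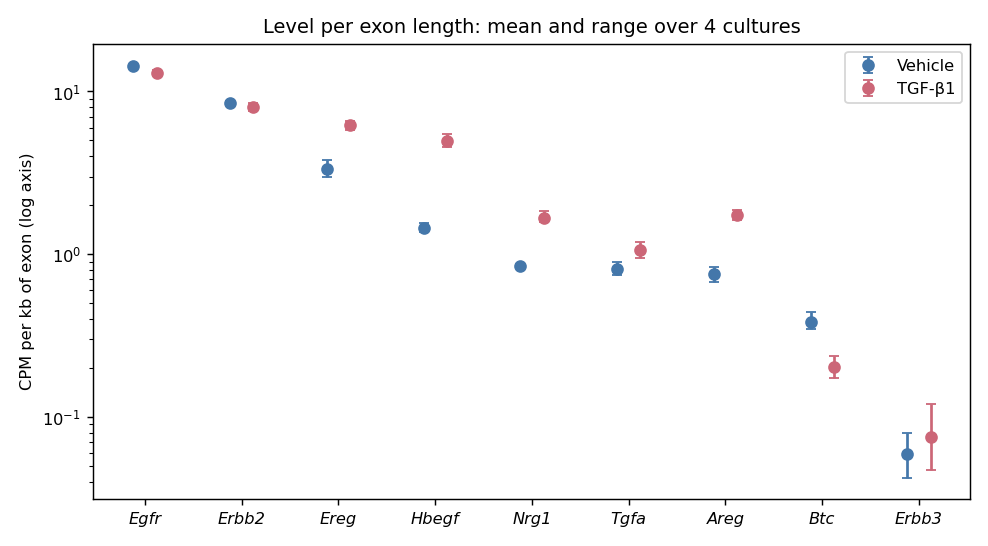
Level of each gene in CPM per kb of exon on a log axis, as the mean (point) and range (bars) of 4 vehicle and 4 TGF-β1 cultures, ordered by the vehicle level. *Egfr* is highest and *Erbb3* lowest in both groups, and *Hbegf* goes from 1.46 to 4.98 CPM per kb.

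The other genes of the family were low. *Egf*, the ligand that names the family, was at 2.43, 2.61, 2.67 and 2.27 CPM with vehicle and at 2.16, 2.00, 2.16 and 1.79 CPM with TGF-β1. All treated cultures were below the vehicle cultures, but the log2 fold change of -0.30 did not pass the test (edgeR adjusted p = 0.0818). *Nrg2*, *Nrg4* and *Erbb4*, which encode further neuregulins and a neuregulin receptor, had log2 fold changes of -0.17, -0.29 and -0.39 with edgeR adjusted p of 0.650, 0.134 and 0.386. *Nrg4* had a mean of 2.09 CPM with vehicle and 1.71 CPM with TGF-β1, and *Erbb4* had 12 to 23 counts per culture. *Epgn* and *Nrg3* (5 to 14 counts) were not tested. Of the 4 tested, edgeR called 0 and DESeq2 called 0 with an adjusted p under 0.05, and 1 had an unadjusted edgeR p under 0.05 (*Egf*).

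Genes that release the ligands, carry the signal, restrain it or respond to it were read from 4 lists, whose counts of calls stand beside 20.9% higher and 20.3% lower over all genes tested. Of the 10 genes of ligand shedding and processing, 5 were higher and 4 lower (41.3% of all genes were called in either direction), with a median log2 fold change of 0.06. *Adam17*, the main sheddase of EGF receptor ligands, had a log2 fold change of -0.15 and *Adam10* of -0.26, whereas *Adam19*, a protease that cleaves neuregulin, rose by 0.75 (edgeR adjusted p = 7.90e-06, 4.08e-12 and 3.66e-25). *Adam9* fell by 0.16 and *Adam12* by 0.18 on the log2 scale. *Adam17* is named here after its values were seen. Of 24 adaptor and kinase genes, 9 were higher and 9 lower (median -0.02). *Map2k1*, which encodes the kinase MEK1, rose by 0.40, and *Mapk3*, which encodes ERK1, fell by 0.48 on the log2 scale, while *Pik3cb* rose by 0.36 and *Akt2* fell by 0.33, all with an edgeR adjusted p of at most 2.89e-07.

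Genes listed as negative regulators of ErbB receptors were mostly higher, with 7 of 11 higher and 1 lower, beside 20.9% and 20.3% of all genes tested. Their median log2 fold change was 0.32, beside -0.01 over all genes. The action of each listed gene on ErbB receptors was not tested. *Lrig1*, a membrane protein that promotes degradation of ErbB receptors, was at 76.35, 79.2, 83.4 and 81.7 CPM with vehicle and at 134.4, 149.2, 149.9 and 152.4 CPM with TGF-β1. It rose by a log2 fold change of 0.87 (standard error 0.03, edgeR adjusted p = 5.68e-20). Its relative *Lrig3* rose by 0.41, *Socs5* by 0.41 and *Cbl*, a ubiquitin ligase for the EGF receptor, by 0.36, with edgeR adjusted p of at most 1.06e-14. The 1 lower gene was *Cblb*, a relative of *Cbl*, which went from 116.2 to 100.7 CPM. Its log2 fold change was -0.21 (edgeR adjusted p = 1.65e-08), so these 2 ligase genes moved in opposite directions. *Cblb* is named here after its values were seen.

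Genes that respond to ERK signalling were higher in 12 of 14 cases and lower in 1, beside 20.9% and 20.3% of all genes tested, with a median log2 fold change of 0.56. *Etv4*, an ETS transcription factor, was at 8.61, 10.1, 8.42 and 10.2 CPM with vehicle and at 26.8, 33.0, 30.4 and 32.3 CPM with TGF-β1, and its log2 fold change was 1.72 (standard error 0.07, edgeR adjusted p = 3.67e-20). *Dusp4* and *Dusp6*, phosphatases that act on MAP kinases, rose by log2 fold changes of 1.29 and 0.69, and *Ier3* rose by 0.76 (edgeR adjusted p of at most 2.97e-10). The gene that fell was *Spry2*, an inhibitor of receptor tyrosine kinase signalling, at -0.28 (edgeR adjusted p = 9.93e-07), and *Phlda1* did not pass the test at -0.07 (adjusted p = 0.196). Both are named here after their values were seen. Overlap with other genes reached 57.21% of the exon bases of a gene in this list (32.97% for *Phlda1*), with the strand setting not given. The exons of *Etv4*, *Dusp4*, *Dusp6*, *Ier3* and *Spry2* overlapped no other gene. Many of these genes also respond to other signals, and phosphorylation was not measured in these files.

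**Figure D5:**
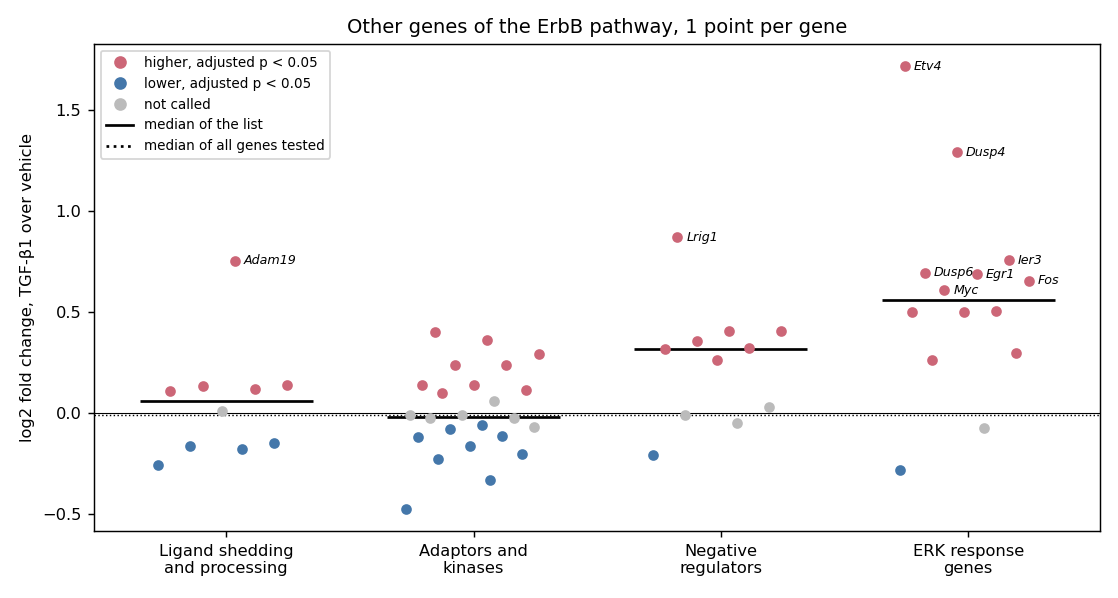
Log2 fold change (TGF-β1 over vehicle) of the tested genes of 4 ErbB pathway lists, 1 point per gene, coloured by the edgeR call, with the median of each list as a black bar and that of all genes tested as a dotted line. ERK response genes have a median of 0.56 and adaptors and kinases one of -0.02.

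The genes whose profile over the 8 cultures was most like that of *Hbegf*, among 16493 other genes with a mean of at least 1 CPM, were *Gpc1*, *Itgb3* and *Syt7*. Likeness was the root mean square difference between centred log2 CPM values, which was 0.06 for *Gpc1*, 0.07 for *Itgb3* and 0.08 for *Syt7*. *Gpc1* went from 92.7 to 305 CPM. For *Btc* they were *Gm42996* (0.08), *Gm37626* (0.08) and *Mas1* (0.11). With 4 cultures against 4, such a likeness mostly reflects a similar size of the change.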

How the data were processed

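RNA from 8 mouse brain pericyte cultures was sequenced after a stranded total RNA preparation, 4 with TGF-β1 and 4 with vehicle. The authors deposited 1 file of raw, not normalized counts per culture, made with featureCounts (2.0.3) from STAR (2.7.5c) alignments on mm10 after duplicate removal in samtools (1.15). The annotation release, the strand setting and the treatment of shared reads are not given in the sources used here. Of the 54532 identifiers, 54495 were matched to GENCODE M21 (GRCm38, the same assembly as mm10) for symbols, positions and exon lengths.

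The counts were tested with edgeR 4.0.16 in R 4.3.3 (filterByExpr, TMM factors, robust quasi-likelihood test), with p-values adjusted by Benjamini-Hochberg over all 22544 genes tested and a threshold of 0.05. Standard errors were taken as the absolute log2 fold change over √F, and the 95% confidence interval used the t quantile of the fitted degrees of freedom. Library totals did not separate the groups (exact two-sided permutation test, p = 0.857, smallest possible 0.0286). In a chi-square comparison of counts, same-group pairs of cultures had values per degree of freedom from 2.25 to 3.93. With counts halved they were from 1.14 to 2.11. These lie above the 1 of sampling noise, but the comparison cannot tell spread between isolates from spread of library preparation. Each culture was counted as 1 sample, and p-values measure the spread between these cultures. Low counts were mostly even (68.5 to 70.2% of the counts from 1 to 20), so counts may hold both mates of a pair.

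The genes and lists were chosen with earlier results of these data known. Named genes were all EGF family genes, up to 4 genes from each of the other pathway lists with the largest called change at a mean of at least 1 CPM, and the 3 genes most like the member with the largest rise and the largest fall. Marker genes with a mean of at least 1 CPM could be named with their level. Named outside this rule, after their values were seen, were *Adam17*, *Cblb*, *Spry2*, *Phlda1*, the low markers *Des*, *Kcnj8*, *Abcc9*, *Lum*, *Cldn5* and *Olig2*, and the non-coding genes of the chromosome 5 stretch. Promoters came from RefSeq for 5 of the 9 genes. The code was tested on simulated data. The alternatives were DESeq2 1.42.0, DESeq2 size factors, library totals or upper-quartile factors in edgeR, other filters on counts, counts halved and rounded up, and each culture left out.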

Additional observations from a re-analysis of the deposited data

Results flagged for a closer look

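Across 64 groups of 4 values (the EGF family genes, the other named pathway genes and the library totals), 1 held a value set well apart from the rest. Chance, at 1 in 20, would give 3.2. For *Nrg1*, TGF-β1 replicate 5 had 18.96 CPM and the nearest treated culture 16.65 CPM. That culture was also the highest of its group in *Tgfa*, at 7.72 CPM, but not in *Hbegf*, *Areg* or *Ereg*.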

How the results depend on the processing

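Of 29 genes examined under up to 15 alternatives each, 433 values in all, every gene kept its direction and its side of the threshold of 0.05 in each alternative that gave a value. *Erbb3* and *Erbb4* gave none with counts halved and rounded up, where they did not pass the filter. The 9 EGF family genes held 7 calls, 5 higher and 2 lower, in all alternatives. With each culture left out the log2 fold change was 1.72 to 1.81 for *Hbegf*, 1.15 to 1.25 for *Areg*, 0.86 to 0.98 for *Ereg*, 0.92 to 1.00 for *Nrg1*, 0.32 to 0.44 for *Tgfa*, -0.97 to -0.82 for *Btc* and -0.15 to -0.12 for *Egfr*. That of *Erbb3*, not called, went from 0.01 to 0.51, and the lowest value was without TGF-β1 replicate 7. The edgeR or DESeq2 adjusted p of *Erbb2* stayed between 0.0578 and 0.309. Over all genes, 8559 to 9311 were called. Scaling moved the median of all genes by at most 0.01 on the log2 scale. No paired analysis was possible because the labels give the groups no shared replicate number. Depth limits *Erbb3*, *Erbb4*, *Nrg3* and *Epgn* most.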
